A study of Mus musculus with 17 samples.

Results

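Acyl-CoA thioesterases hydrolyse acyl-CoA into a free fatty acid (or another carboxylic acid) and coenzyme A. Members were chosen by gene symbol: of the 8 listed, Acot1, Acot2, Acot3, Acot4, Acot8, Acot12 and Acot13 had values among the 24676 genes measured. Acot5 was not analysed here. All 7 passed the filter on low values, as did 13379 genes in all.

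The family falls into a type I branch, with an alpha/beta-hydrolase fold (Acot1 to Acot5 among those listed), and a type II branch with a hotdog fold (Acot8, Acot12 and Acot13). Together with the acyl-CoA synthetases, which work in the opposite direction, they set the balance of acyl-CoA, free fatty acid and coenzyme A in the cytosol, mitochondria and peroxisomes. In liver, type I genes are known targets of the fatty acid receptor PPARA and are induced by fasting and fibrates.

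Messenger RNA was measured in frozen liver. The mice were male, of mixed strain and, per the sample labels, aged 11 weeks, and all carried floxed Gata4, a gene for a zinc-finger transcription factor. They had received AAV8-Tbg-Cre, which expresses Cre recombinase from the hepatocyte promoter Tbg (Gata4LKO), or an AAV8 with no transgene (control), 1 week earlier, so that the Cre cargo and the deletion cannot be told apart. The drug was GW3965, which activates LXR, the oxysterol-sensing liver X receptors. It was gavaged at 40 mg/kg, with canola oil as carrier, at 17 h and again at 8 h before the mice were killed, the last 4 h of which were a fast. Vehicle mice received dimethylsulfoxide in the oil. The groups were control vehicle (n = 4, replicates 1 to 4), Gata4LKO vehicle (n = 4, replicates 5 to 8), control GW3965 (n = 4, replicates 9, 10, 12 and 13) and Gata4LKO GW3965 (n = 5, replicates 14 to 18). Groups follow the titles. The treatment label contradicts the title in 8 of 17 libraries, those of Gata4LKO vehicle and control GW3965. Nothing in the labels says that libraries came from separate mice, so p-values measure the spread between libraries, which may be technical.

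Libraries held 11.8 to 22.05 M reads in genes. Gata4 itself, the targeted gene, was not lower in the libraries labelled Gata4LKO: its normalized counts (reads divided by a size factor per library) were 128 to 183 in control vehicle, 137 to 234 in Gata4LKO vehicle, 164 to 258 in control GW3965 and 159.9 to 259.9 in Gata4LKO GW3965. A whole-gene count includes reads outside any deleted exon, which limits it as a check of the labels. Mitochondrially encoded genes held 15.6% to 32.6% of the counts of 5 libraries and 6.06% to 7.26% of those of 12. The 5 are control vehicle 1, control GW3965 10 and 13, and Gata4LKO GW3965 17 and 18. The pseudogene Gm5345 was below 10 normalized counts in 4 of 4 Gata4LKO vehicle and 2 of 4 control GW3965 libraries and above it in the other 11. In Gata4LKO this split and the treatment thus cannot be told apart. With vehicle, 4 of 4 control libraries were above 10, so there this split and the genotype cannot be told apart either. All 10 hepatocyte markers were present, led by Alb. Summed Kupffer cell and macrophage markers (12 genes, none at 0) were 2649 to 3649 in control vehicle, 4503 to 7641 in control GW3965, 4611 to 5413 in Gata4LKO vehicle and 4494 to 6666 in Gata4LKO GW3965. In whole tissue, fewer cells of a type and less RNA per cell cannot be told apart.

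The type I genes stand in a row on the plus strand of chromosome 12 (mm10, GENCODE M21), in the order Acot2 (83987861 to 83993873), Acot1 (84009490 to 84018371), Acot4 (84038379 to 84048601), Acot3 (84052144 to 84060402), Acot5 (84069325 to 84076020) and Acot6 (84100654 to 84111349), over 123.5 kb. The gap between Acot4 and Acot3 is 3.54 kb and that between Acot2 and Acot1 is 15.6 kb. The type II genes lie apart: Acot8 on chromosome 2 (164792765 to 164804882, minus strand), Acot13 on chromosome 13 (24817948 to 24831540, minus strand) and Acot12 on chromosome 13 (91741512 to 91786148, plus strand).

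Since Acot1 to Acot4 were all higher with GW3965 when averaged over genotypes, the 250 bases before the RefSeq start of each (mm10) are shown, with that of Acot12, which was not called, for contrast. Capitals mark TATAAA, known as the TATA box, the letters CCAAT, known as the CCAAT box, or a DR1 element (2 copies of AGGTCA with 1 base of any kind between them, up to 2 mismatches), each on either strand. A DR1 is the kind of repeat that PPARA binds with its partner RXR.
Acot2, chr12:83987611-83987860 (plus strand): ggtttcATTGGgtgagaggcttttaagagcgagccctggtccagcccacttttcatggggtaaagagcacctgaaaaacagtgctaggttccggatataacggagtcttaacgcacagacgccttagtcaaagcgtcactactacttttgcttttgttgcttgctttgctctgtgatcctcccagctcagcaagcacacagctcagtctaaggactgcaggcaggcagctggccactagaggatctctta
Acot1, chr12:84009252-84009501 (plus strand): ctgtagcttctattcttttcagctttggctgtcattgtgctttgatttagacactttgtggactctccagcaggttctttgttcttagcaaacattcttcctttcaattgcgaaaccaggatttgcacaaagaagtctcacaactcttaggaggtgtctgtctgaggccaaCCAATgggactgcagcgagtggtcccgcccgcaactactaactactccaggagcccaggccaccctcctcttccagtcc
Acot4, chr12:84038129-84038378 (plus strand): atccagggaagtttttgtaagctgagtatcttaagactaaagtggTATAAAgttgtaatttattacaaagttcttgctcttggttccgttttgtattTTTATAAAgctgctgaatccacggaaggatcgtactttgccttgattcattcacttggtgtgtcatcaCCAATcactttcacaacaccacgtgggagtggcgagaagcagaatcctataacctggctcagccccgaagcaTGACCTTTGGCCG
Acot3, chr12:84051894-84052143 (plus strand): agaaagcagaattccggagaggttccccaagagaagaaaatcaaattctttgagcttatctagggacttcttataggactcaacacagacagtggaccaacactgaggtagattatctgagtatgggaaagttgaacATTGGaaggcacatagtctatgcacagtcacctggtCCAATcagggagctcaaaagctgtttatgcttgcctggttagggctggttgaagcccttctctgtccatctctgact
Acot12, chr13:91741271-91741520 (plus strand): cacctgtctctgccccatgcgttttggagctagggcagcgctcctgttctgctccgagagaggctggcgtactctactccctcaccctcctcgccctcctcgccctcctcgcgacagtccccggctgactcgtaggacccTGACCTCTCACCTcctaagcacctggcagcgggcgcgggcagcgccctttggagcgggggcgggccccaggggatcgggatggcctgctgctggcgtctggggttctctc
Of 27025 mouse promoter windows of this length, 3.18% held a DR1 so defined, 12.97% a TATA box and 34.5% a CCAAT box. The Acot4 window held a DR1 match with 2 mismatches in the last 13 bases before the start. It also held 1 CCAAT box, at 85 to 81 bases before the start, and 3 TATA box matches. Of the TATA box matches, 1 lay at 205 to 200 bases before the start and the other 2, on opposite strands, overlap. Acot12 held a DR1 match with 1 mismatch at 110 to 98 bases before the start, and no TATA or CCAAT box. Acot2, Acot1 and Acot3 held CCAAT boxes (1, 1 and 2) and neither other motif. No member's window held a DR4, the repeat bound by LXR (the same copies with 4 bases between them, up to 2 mismatches), which 2.55% of windows held. A match is a description of letters, not of binding, and elements farther away were not searched.

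The first comparison asks which thioesterases changed with GW3965. In control livers, Acot1, Acot2 and Acot4 rose with the agonist, by 5.23-, 3.77- and 1.99-fold in group means. That is 3 of 7 members called (limma adjusted p below 0.05 over all genes), where 0.792% of all genes tested were called. Acot3 was 4.69-fold higher in means and lay at an adjusted p of 0.0554 (limma). Acot8 and Acot12 differed by -0.03 and 0.06 on the log2 scale. The median log2 difference of the 7 members was 1.05, against -0.01 over all genes tested. With only the 2 groups compared in the fit, the log2 differences of Acot1, Acot2 and Acot4 stayed at 2.61, 1.92 and 1.05 and did not pass the test (limma adjusted p of 0.0804 to 0.108). With Gm5345 detection as a covariate they were 2.57, 2.05 and 0.90 and did not pass either (0.0591 to 0.406). This covariate varies within a group only in control GW3965 (detected in 2 of 4 libraries), so its estimate rests on those 4 libraries.

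Acot1 is the cytosolic long-chain acyl-CoA thioesterase. Its normalized counts in control vehicle libraries were 630.4, 158, 90.8 and 225 (replicates 1 to 4), and in control GW3965 libraries 773, 2334, 1749 and 919 (replicates 9, 10, 12 and 13). The groups did not overlap, although replicate 1, a library with a high mitochondrial share, came close to the lowest treated library. The log2 difference was 2.61 ± 0.45 (SE; limma adjusted p = 0.0109). In Gata4LKO, vehicle libraries had 388, 749, 329 and 389.9 and GW3965 libraries 1108, 1203, 1867, 1249 and 1326, again with no overlap. That difference was 1.59 ± 0.43 and did not pass the test (limma adjusted p = 0.139), though it did when only those 2 groups were fitted (0.0142). Leaving out replicate 10 of control GW3965, the highest Acot1 library, took the difference in control to 2.33 and its adjusted p to 0.0585 (limma).

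Acot2 is the mitochondrial paralog, with closely related sequence. Its counts were 69.5, 34.5, 38.8 and 83.5 in control vehicle and 123, 282, 254 and 194 in control GW3965. With 34.5 to 282 counts over all 17 libraries it was the least abundant of the type I members, yet it was the member with the smallest p in each genotype. The log2 difference was 1.92 ± 0.31 in control (limma adjusted p = 0.00793). Gata4LKO vehicle libraries lay close together at 64.7, 63.1, 59.9 and 58.7, and Gata4LKO GW3965 libraries had 137, 120.1, 203, 262 and 249. Every treated library was above every vehicle library in both genotypes. The difference in Gata4LKO was 1.57 ± 0.30 (limma adjusted p = 0.0291), which made Acot2 the 1 of 7 members called there, where 0.247% of all genes were called. Without the 5 libraries of high mitochondrial share, of which Gata4LKO GW3965 holds 2 and Gata4LKO vehicle none, it was 1.27 (adjusted p = 0.139) in Gata4LKO and 1.85 (adjusted p = 0.0553) in control (limma), so that 0 and 2 members were called. The call in Gata4LKO was also lost when any 1 of replicates 5 to 8 and 16 to 18 was left out (limma adjusted p of 0.0591 to 0.116). With Gm5345 detection as a covariate the log2 difference there was 1.32 (limma adjusted p = 0.999). Detection follows the treatment in Gata4LKO and varies within a group only in control GW3965, so this fit cannot decide on the call.

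Acot3 and Acot4 are peroxisomal. Acot3 acts on medium- and long-chain acyl-CoA and Acot4 on the CoA esters of dicarboxylic acids such as succinate. Acot3 had 280.4, 76.8, 53.0 and 277 counts in control vehicle and 1474, 530.0, 664 and 551 in control GW3965. Replicates 1 and 4 were thus far above replicates 2 and 3 within the vehicle group, and replicate 9 stood above the other treated libraries. The groups did not overlap, with a log2 difference of 2.44 ± 0.57 (limma adjusted p = 0.0554). Without replicate 1 of control vehicle it was 2.80 and passed (limma adjusted p = 0.0353). In Gata4LKO, vehicle libraries had 286, 481, 117 and 99.9 and GW3965 libraries 452, 391, 899.8, 443 and 1145. Here the highest vehicle library, replicate 6, lay above 3 treated libraries, and the difference of 1.59 ± 0.54 did not pass the test (limma adjusted p = 0.275).

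Acot4 was the most abundant type I member. Control vehicle libraries had 2882, 1479, 1429.7 and 2318 counts and control GW3965 libraries 4312, 4609, 3904 and 3348. As with Acot3, replicates 1 and 4 were the higher vehicle libraries. The log2 difference of 1.05 ± 0.21 passed the test (limma adjusted p = 0.0288), but not when any 1 of replicates 2, 3, 4, 9, 10 and 12 was left out (adjusted p of 0.0507 to 0.122). Gata4LKO vehicle libraries had 2494, 2696, 1738 and 1499 and GW3965 libraries 3218, 2954, 3726, 3526 and 3894. The groups did not overlap, and the difference was 0.75 ± 0.20 (limma adjusted p = 0.142). In vehicle livers of both genotypes, the libraries high in Acot3 were those high in Acot4, namely replicates 1 and 4 of control and replicates 5 and 6 of Gata4LKO.

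**Figure D1:**
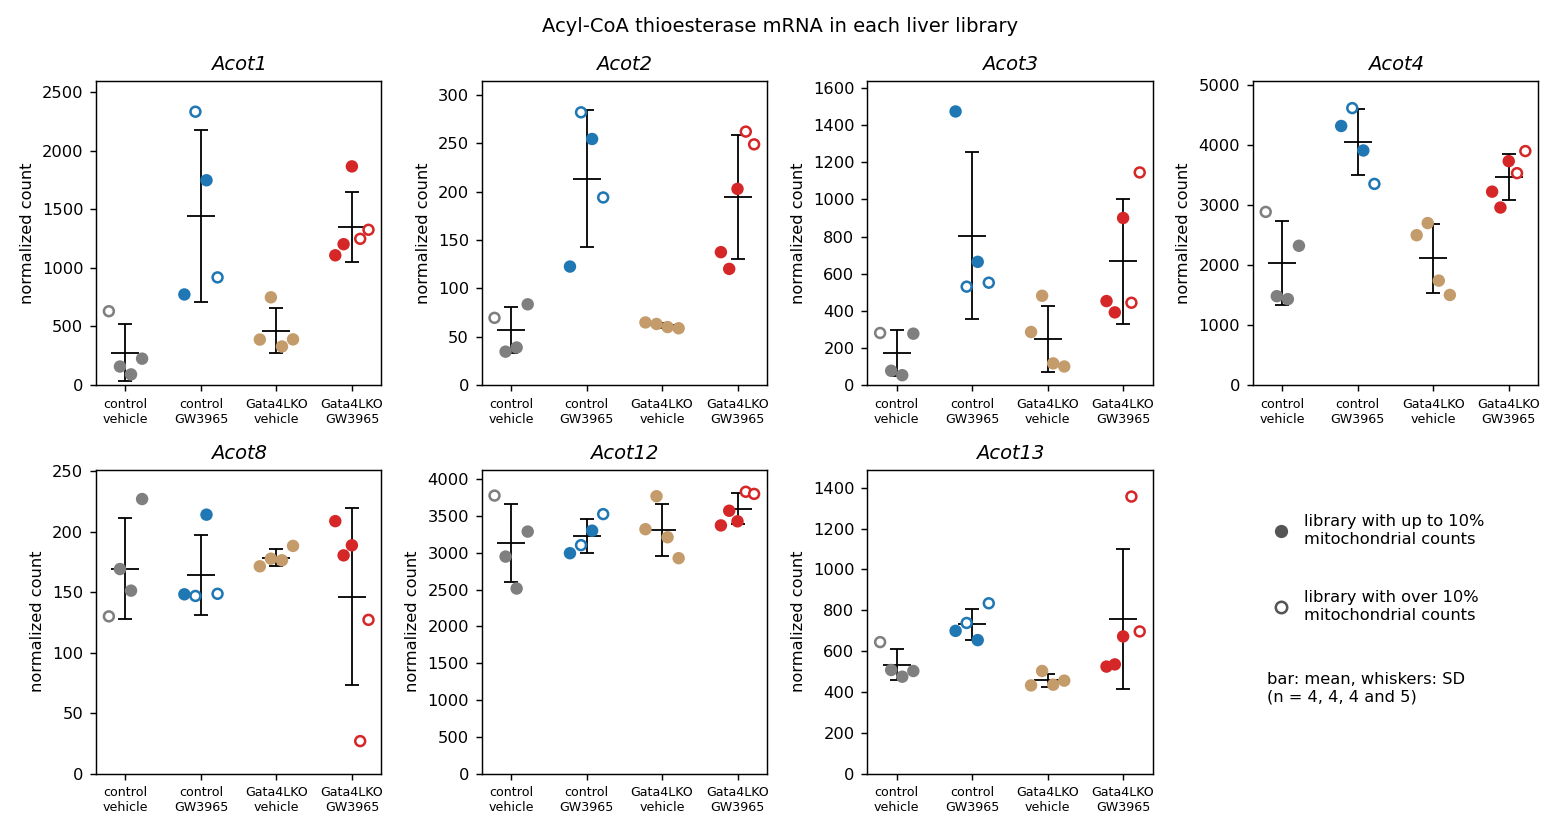
Normalized count of 7 thioesterase genes in each of the 17 libraries (linear axes from 0), by group, with the mean and SD. Hollow points are the 5 libraries with over 10% mitochondrial counts. All GW3965 points lie above all vehicle points for Acot1, Acot2, Acot4 and Acot13 in both genotypes, and the Acot8 point at 27.0 and the Acot13 point at 1357 are the same library.

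Of the type II members, Acot13 (also known as Them2), a long-chain acyl-CoA thioesterase that associates with mitochondria, had 644, 508, 475 and 503 counts in control vehicle and 699, 738, 654 and 834 in control GW3965. In Gata4LKO it had 432, 503, 436 and 456 with vehicle and 524, 535, 672, 1357 and 696 with GW3965. Treated libraries were above vehicle libraries in each genotype, with log2 differences of 0.46 ± 0.22 in control (limma adjusted p = 0.541) and 0.63 ± 0.21 in Gata4LKO (limma adjusted p = 0.248). Groups that do not overlap in this direction made up 5 of 7 members in control, against 3.13% of all genes tested, and 4 of 7 in Gata4LKO, against 2.91%.

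Acot12, a cytosolic enzyme that hydrolyses acetyl-CoA, had the highest mean count of the members in 3 of the 4 groups. In control GW3965, Acot4 was higher, with a mean of 4043 against 3231. It had 3777, 2949, 2515 and 3288 counts in control vehicle and 2995, 3104, 3301 and 3526 in control GW3965. Gata4LKO libraries had 3321, 3769, 3211 and 2927 with vehicle and 3372, 3571, 3428, 3829 and 3800.2 with GW3965. All 4 groups overlapped. The log2 difference was 0.06 in control (95% interval -0.19 to 0.31) and 0.13 in Gata4LKO (-0.11 to 0.36), neither of which passed the test (limma adjusted p of 0.967 and 0.619). The sign of the first turned without replicate 3 of control vehicle (-0.042).

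Acot8, the broad-specificity thioesterase of peroxisomes, had 130.1, 169, 151 and 227 counts in control vehicle and 148, 147, 214 and 149 in control GW3965. Gata4LKO vehicle libraries had 172, 178, 176 and 188. In Gata4LKO GW3965, 3 libraries had 209, 181 and 189 and the remaining 2, replicates 17 and 18, had 27.0 and 127. The log2 difference was -0.03 in control (95% interval -0.95 to 0.89) and -0.57 in Gata4LKO (-1.44 to 0.30), and neither passed the test (limma adjusted p of 0.996 and 0.555). The value in Gata4LKO was -0.040 without replicate 17.

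Acot8 and Acot13 moved with the mitochondrial share of the libraries. Acot8 lay between 27.0 and 149 counts in the 5 libraries of high share and between 148 and 227 in the other 12. Acot13 lay between 644 and 1357 in those 5 and between 432 and 699 in the 12. Replicate 17 of Gata4LKO GW3965, with the highest share, was lowest of all libraries for Acot8 and highest for Acot13. Without the 5 libraries the log2 difference of Acot13 with GW3965 was 0.45 in control and 0.33 in Gata4LKO. Without them the log2 difference of Acot8 was -0.013 in control and 0.11 in Gata4LKO, and with the mitochondrial share as a covariate it was 0.16 and -0.015, none of which passed the test (limma).

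**Figure D2:**
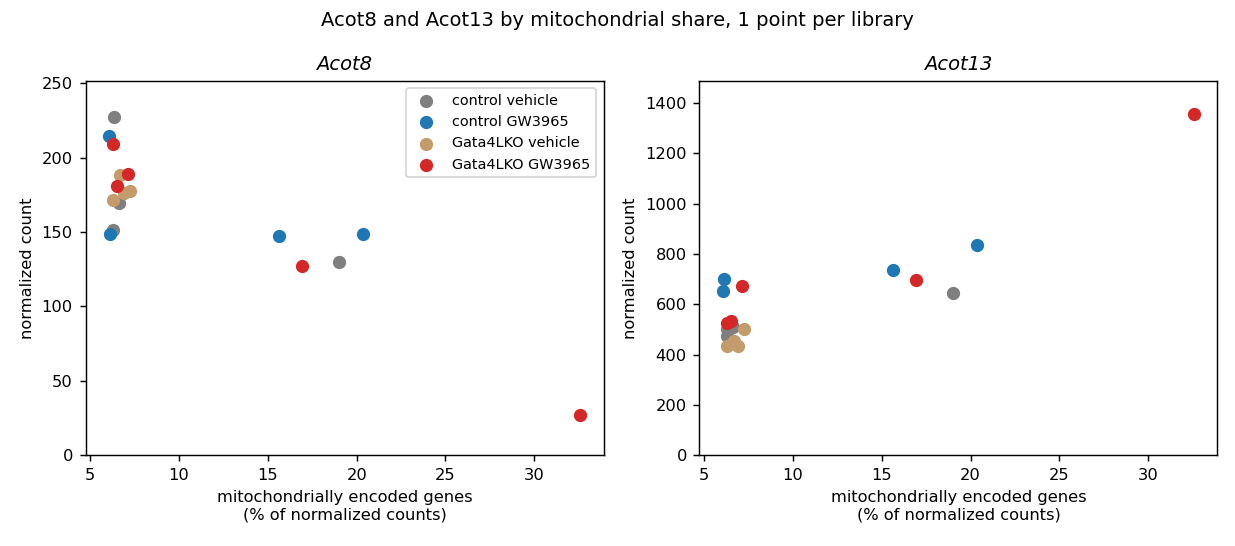
Normalized counts of Acot8 (left) and Acot13 (right) against the percentage of normalized counts from mitochondrially encoded genes, 1 point per library, coloured by group. The library at 32.6% has the lowest Acot8 count, 27.0, and the highest Acot13 count, 1357.

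Averaged over both genotypes, which draws on all 17 libraries, GW3965 raised 4 of 7 members (1.78% of all genes tested were called). The log2 difference was 1.75 ± 0.21 for Acot2 (limma adjusted p = 0.000249), 2.10 ± 0.31 for Acot1 (0.00131), 0.90 ± 0.15 for Acot4 (0.00303) and 2.02 ± 0.39 for Acot3 (0.0106). Acot13 was at 0.55 ± 0.15 (0.0709), and passed when replicate 1 of control vehicle or replicate 14, 15 or 17 of Gata4LKO GW3965 was left out (0.0156 to 0.0498). These 4 calls were kept in each of 17 fits that left out 1 library and in each of 10 other settings. The average uses the same libraries as the 2 comparisons within genotypes and is not a further replicate of them. Kupffer cell and macrophage markers, whose sums did not overlap between control vehicle and control GW3965, were higher in the control GW3965 libraries, and their ranges overlapped between the Gata4LKO groups. Of 12 tested, 12 had a positive log2 difference in control and 6 in Gata4LKO. In control, limma called 1 (0.792% of all genes were called), edgeR 1 and DESeq2 4, and 6 had an unadjusted p below 0.05. Each of these counts was 0 in Gata4LKO. All 8 endothelial markers had a positive difference in both genotypes (median log2 0.24 in control and 0.43 in Gata4LKO), with 0 called by limma, 1 and 4 at an unadjusted p below 0.05, 1 and 0 called by edgeR and 1 in each by DESeq2. Of 8 stellate cell markers, 5 were positive in control (median 0.02) and 7 in Gata4LKO (median 0.65), where limma and edgeR called 0, 6 had an unadjusted p below 0.05 and DESeq2 called 3. Their summed counts were 2850 to 4160 in Gata4LKO vehicle and 4039 to 5877 in Gata4LKO GW3965. In Gata4LKO, limma called 0.247% of all genes. These shares of all genes are for limma at an adjusted p. The marker counts at an unadjusted p, by edgeR or by DESeq2 have no such share beside them and are descriptions. The part of these markers in the thioesterase differences was not tested.

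In the authors' deposited table for GW3965 in control, the adjusted p was 1.69e-06 for Acot2, 0.000862 for Acot1, 0.00164 for Acot4 and 0.0354 for Acot3. In the authors' deposited table for GW3965 in Gata4LKO, it was 3.71e-05 for Acot2, 0.0532 for Acot4, 0.0734 for Acot13 and 0.0857 for Acot1. Of all genes with an adjusted p in those tables, 1.62% were below 0.05 in control and 1.33% in Gata4LKO. Limma called 0.792% and 0.247% of the genes it tested. The authors' deposited table, with its larger share of calls, has Acot3 below 0.05 in control, where the limma fit has it just above.

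**Figure D3:**
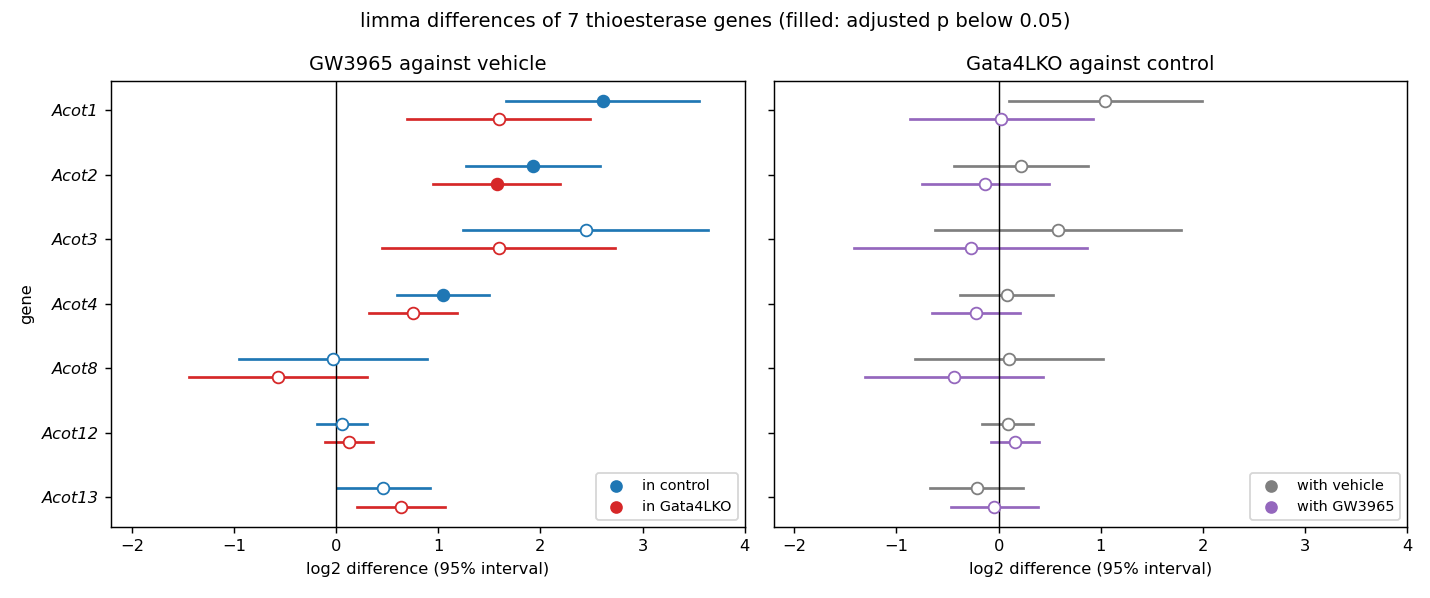
Log2 differences of 7 thioesterase genes with 95% intervals from the limma fit, for GW3965 against vehicle (left) and Gata4LKO against control (right). Filled points passed the test. With GW3965 the intervals of Acot1 to Acot4 lie above 0 in both genotypes, and in the genotype comparisons no point is filled.

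The second comparison asks whether libraries labelled Gata4LKO differed from control libraries in these genes. No member was called in either treatment by limma, edgeR or DESeq2, where limma called 0.0149% of all genes with vehicle and 0.0598% with GW3965. At an unadjusted p below 0.05 there was 1 member with vehicle (Acot1) and 0 with GW3965. Acot1 was 1.68-fold higher in group means in Gata4LKO vehicle libraries, with a log2 difference of 1.04 ± 0.45 (95% interval 0.10 to 1.99; limma adjusted p = 0.770) and overlapping groups. It was 1.56 without replicate 1 of control vehicle, the highest library of its group, and 0.64 without replicate 3, the lowest. With vehicle, Gm5345 detection follows the genotype label, so a difference by genotype and one by that split cannot be told apart. With GW3965, the Acot1 difference was 0.02 ± 0.43 and that of Acot2 -0.13 ± 0.30, and the sign of both turned when single libraries were left out (-0.23 to 0.30 and -0.37 to 0.024). Acot12, the member with the smallest SE, differed by 0.09 (95% interval -0.16 to 0.34) with vehicle and 0.16 (-0.08 to 0.39) with GW3965. Of 12 Kupffer cell and macrophage markers, 12 were higher in Gata4LKO with vehicle and 6 with GW3965. Their sums with vehicle did not overlap (2649 to 3649 in control, 4611 to 5413 in Gata4LKO). With vehicle, limma and edgeR called 0 of them, DESeq2 called 3 and 9 had an unadjusted p below 0.05. Their part in the thioesterase values was not tested.

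Whether the response to GW3965 differed between genotypes was tested as an interaction. No member was called by limma (0.0149% of all genes were), edgeR or DESeq2, and 0 had an unadjusted p below 0.05. For Acot1 the response was 1.02 ± 0.62 lower in Gata4LKO on the log2 scale, with a 95% interval from -2.32 to 0.28 for the difference. That difference was -1.54 without replicate 1 of control vehicle and -0.61 without replicate 3. For Acot3 the interval ran from -2.51 to 0.80. The interval for Acot4 was narrower, from -0.92 to 0.33. A response that passed in control and not in Gata4LKO, as for Acot1 and Acot4, was thus not shown to differ between them. The interaction also uses the vehicle groups, where Gm5345 detection follows the genotype label.

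Levels were compared between genes per kb of annotated exon. In control vehicle livers Acot12 was at 951 ± 162 normalized counts per kb (SD, n = 4), Acot13 at 716 ± 102, Acot4 at 304 ± 105, Acot8 at 84.9 ± 20.8, Acot1 at 70.5 ± 61.9, Acot3 at 49.9 ± 36.0 and Acot2 at 25.8 ± 10.8. Libraries of neighbouring genes in this order overlapped except between Acot13 and Acot4 and between Acot4 and Acot8. In control GW3965 livers the order was Acot13 (983 ± 103), Acot12 (981 ± 70.9), Acot4 (606 ± 81.9), Acot1 (368 ± 187), Acot3 (234 ± 131), Acot2 (97.1 ± 32.2) and Acot8 (82.4 ± 16.6). Here neighbours overlapped except between Acot12 and Acot4 and between Acot3 and Acot2. Acot8 stood above the mean of Acot1, Acot3 and Acot2 in control vehicle and below that of each in control GW3965, where its libraries overlapped those of Acot2. This order depends on the length used. Per kb of the principal transcript, Acot8 in control GW3965 was at 143, above Acot2 at 97.1, and Acot12 (1057) was above Acot13 (1014). In Gata4LKO vehicle livers Acot1 (118 ± 49.01) stood above Acot8 (89.4 ± 3.55), with overlap. In Gata4LKO GW3965 the order was Acot12 (1093 ± 63.5), Acot13 (1017 ± 463), Acot4 (519 ± 56.9), Acot1 (345 ± 76.4), Acot3 (194 ± 98.1), Acot2 (88.5 ± 29.1) and Acot8 (73.4 ± 36.7). Per kb of the principal transcript, Acot1 (594) there stood above Acot4 (558), and Acot8 (127) above Acot2 (88.5).

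**Figure D4:**
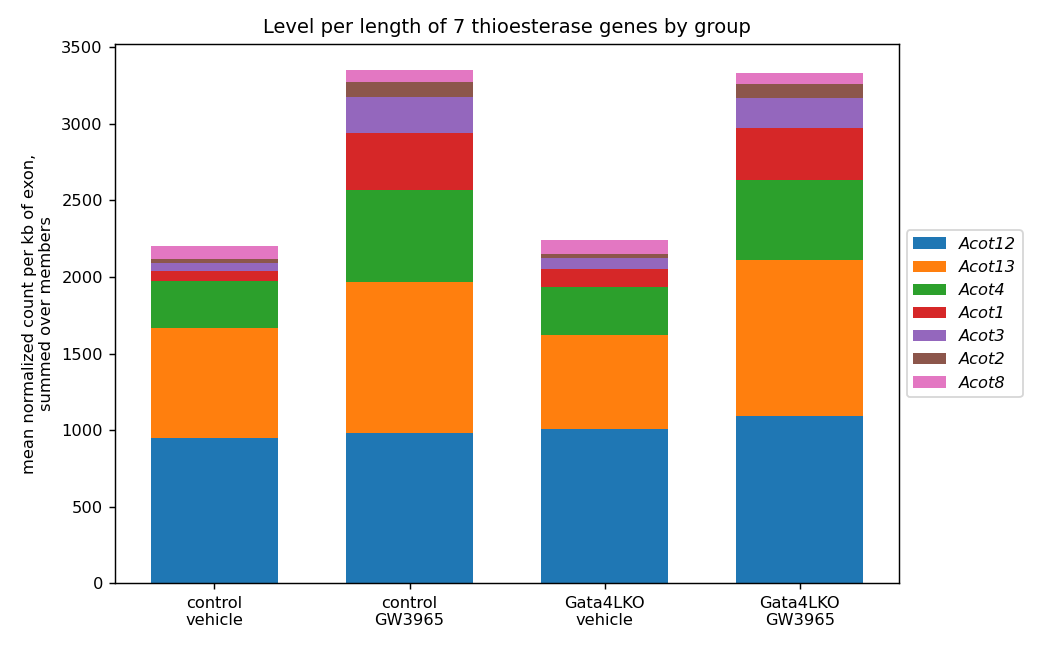
Mean normalized count per kb of exon for 7 thioesterase genes, stacked, in each group. The blue Acot12 segment is between 951 and 1093 in all 4 groups, and the Acot4, Acot1, Acot3 and Acot2 segments are taller in both GW3965 groups.

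The balance between neighbouring paralogs was followed as the ratio of normalized counts of Acot1 to Acot2. It was 2.34 to 9.07 in control vehicle, 4.74 to 8.28 in control GW3965, 5.49 to 11.9 in Gata4LKO vehicle and 4.76 to 10.01 in Gata4LKO GW3965. The mean log2 ratio was 0.69 higher with GW3965 in control (two-sided exact permutation p = 0.229; the smallest possible is 0.0286) and 0.02 higher in Gata4LKO (exact p = 0.952; the smallest possible is 0.0159). Adjusted over these 2 comparisons, p was 0.457 and 0.952, so an unequal rise of the paralogs was not shown. In control GW3965 the ratio of Acot1 to Acot3 ran from 0.525 in replicate 9 to 4.40 in replicate 10.

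How far reads can be assigned to single members bears on these values. In 50-base windows along the principal transcript, 33.6% of those of Acot1 and 27.7% of those of Acot2 occur unchanged in another gene, mostly in each other (23.7% and 24.5%). The share was 14.4% for Acot4, 21.7% for Acot3 (10.5% leaving out a readthrough gene model, Gm49366), 17.7% for Acot8, 3.32% for Acot12 and 0% for Acot13. For Acot8 the shared windows lie in Snx21, which overlaps it by 1052 bases on the opposite strand and averaged 132 normalized counts. No source used here says whether counting used strand, so reads in this overlap cannot be assigned. Snx21 was at 106 in replicate 17, where Acot8 was at 27.0. Antisense genes also overlap Acot3 and Acot4 (4732463B04Rik, mean 6.01) and Acot12 (4833422C13Rik, mean 26.6).

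**Figure D5:**
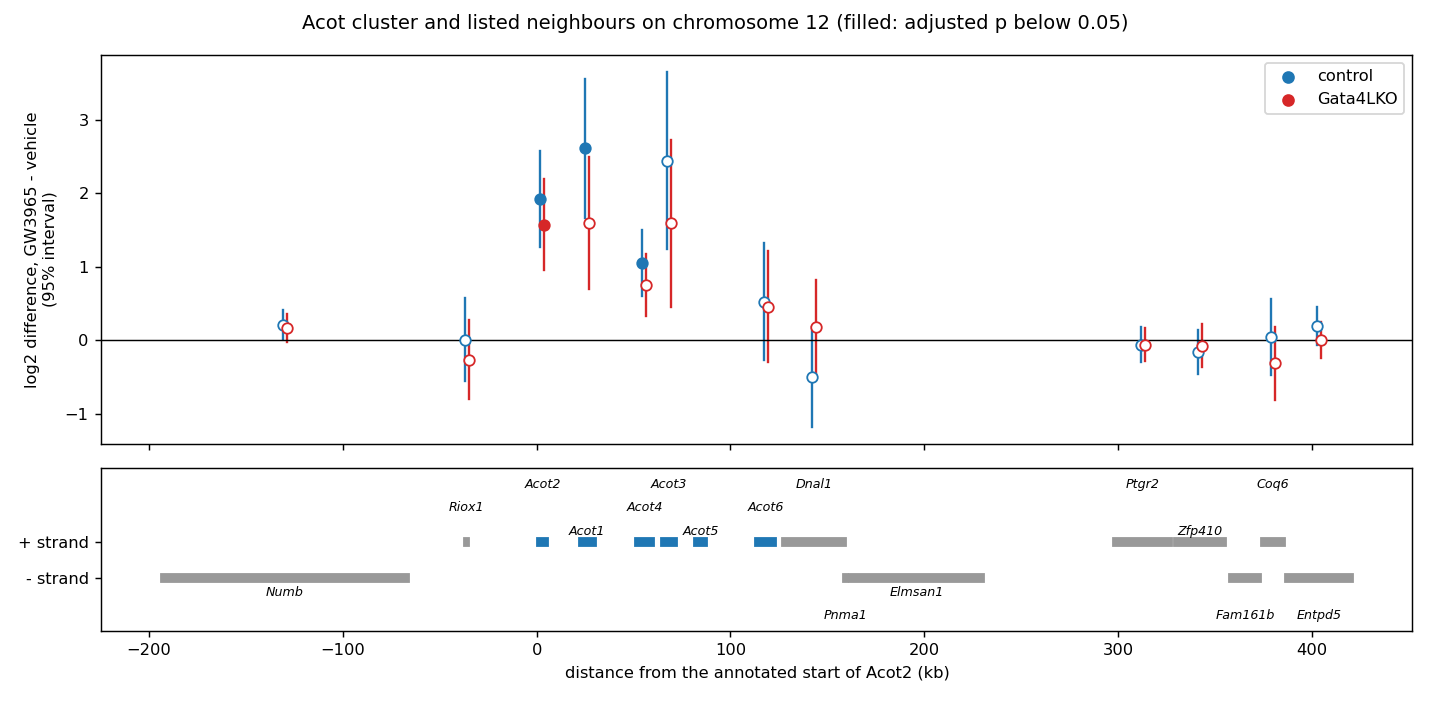
Log2 difference with GW3965 and its 95% interval (top; control blue, Gata4LKO red; filled points passed the test) for genes placed by distance in kb from the start of Acot2, with gene positions by strand (bottom; Acot genes in blue). Filled points are at Acot2, Acot1 and Acot4, and the genes plotted on either side of the row lie between -0.50 (Dnal1 in control) and 0.21 (Numb in control).

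Neighbours of the cluster on chromosome 12 were not called. Of 9 listed neighbours tested (among them Papln, Numb, Riox1, Dnal1, Ptgr2, Zfp410, Coq6 and Entpd5), 0 were called by limma with GW3965 in either genotype. Over all genes, 0.792% were called in control and 0.247% in Gata4LKO, so 0 of 9 does not set the neighbours apart from other genes. Their median log2 difference was -0.06 in both genotypes. At an unadjusted p below 0.05 there was 1 in control and 0 in Gata4LKO, and edgeR and DESeq2 called 0. Numb, a Notch inhibitor, differed by 0.21 ± 0.10 in control and Riox1, a ribosomal oxygenase gene, by 0.01 ± 0.27. Papln, farther away, differed by -1.18 ± 0.82 in control. Acot6, the last gene of the row, was low, at 19.4 ± 4.50 normalized counts in control vehicle and 28.7 ± 8.69 in control GW3965, a log2 difference of 0.53 ± 0.38 (limma adjusted p = 0.819).

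Among the other thioesterases, 1 of 14 tested was called in control and 0 in Gata4LKO, with median log2 differences of -0.09 in each. Over all genes, limma called 0.792% and 0.247%. In Gata4LKO, 2 had an unadjusted p below 0.05, edgeR called 0 and DESeq2 2. The gene called was Fasn, fatty acid synthase, whose thioesterase domain releases palmitate and which is also an LXR target (log2 2.39 ± 0.50 in control, limma adjusted p = 0.0346; 1.74 ± 0.48 in Gata4LKO, 0.147). Baat, which conjugates bile acids to taurine or glycine and is a relative of the type I enzymes, went the other way, at -0.28 ± 0.12 in control and -0.52 ± 0.12 in Gata4LKO (limma adjusted p of 0.504 and 0.0652). Averaged over genotypes, limma called Baat lower with GW3965, and averaged over treatments it called Baat lower in Gata4LKO than in control. The remaining tested genes did not pass. They were Acot6, Acot7, Acot9, Acot11, Them4, Them6, Mcat, Ppt1, Ppt2, Lypla1, Abhd10 and Hibch, with differences in control from -1.30 (Acot11) to 0.53 (Acot6).

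Genes of the same pathway were described from lists. Limma called 0.792% of all genes in control and 0.247% in Gata4LKO. List counts at an unadjusted p, by edgeR or by DESeq2 have no share of all genes beside them and are descriptions. Of 26 genes of peroxisomal oxidation, 4 rose in control (0.605% of all genes did) and 2 in Gata4LKO (0.202%). Those in both were Acaa1b, the peroxisomal thiolase (log2 2.49 ± 0.31 in control and 1.83 ± 0.29 in Gata4LKO), and Ehhadh, the bifunctional enzyme (2.61 ± 0.38 and 2.20 ± 0.36). Abcd3, a peroxisomal fatty acid transporter, was called in control (0.75 ± 0.12). Of 19 genes of mitochondrial oxidation, 0 were called in either genotype by limma, edgeR or DESeq2, and 2 in control and 3 in Gata4LKO had an unadjusted p below 0.05. For the peroxisomal list, 8 in each genotype had an unadjusted p below 0.05, edgeR called 4 and 2 and DESeq2 5 and 4. The median log2 difference was 0.18 for the peroxisomal and 0.09 for the mitochondrial list in control. In Gata4LKO it was -0.05 and -0.01.

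Of 16 acyl-CoA synthetases, which make the substrates of the thioesterases, 1 rose in control (Acsl5, 0.66 ± 0.13, limma adjusted p = 0.0284). In Gata4LKO 1 rose (Acsl3, 1.75 ± 0.25, limma adjusted p = 0.00837). Over all genes, 0.605% and 0.202% rose. At an unadjusted p below 0.05 there were 6 and 4, and DESeq2 called 3 and 1. Averaged over genotypes limma called 4, and for the interaction 0. Mean Acsl3 counts were 478 in control vehicle and 1047 in control GW3965. Mean Acsl5 counts were 4401 in Gata4LKO vehicle and 5330 in Gata4LKO GW3965. Of 19 further PPARA targets, 1 rose in control (Aldh3a2, a fatty aldehyde dehydrogenase, 0.85 ± 0.19) and 0 in Gata4LKO (0 by edgeR, 1 by DESeq2). At an unadjusted p below 0.05 there were 9 in control and 5 in Gata4LKO, and the median log2 difference was 0.63 and 0.40. Averaged over genotypes, 5 rose (Aldh3a2, Cyp4a10, Cyp4a14, Cyp4a31 and Pdk4), or 2 by edgeR. Ppara itself differed by 0.07 ± 0.20 and 0.02 ± 0.19. Of 16 genes of coenzyme A synthesis and breakdown, 0 were called in either by limma and edgeR, with 4 in control and 3 in Gata4LKO at an unadjusted p below 0.05, and DESeq2 called 0 and 1. As a reference for the drug, limma called 12 of 17 LXR targets higher in control and 5 in Gata4LKO, against 0.605% and 0.202% of all genes. DESeq2 called 13 and 12, and 13 in each genotype had an unadjusted p below 0.05. For the interaction, 0 were called by limma, edgeR or DESeq2. Those called by limma in both genotypes include the sterol transporter genes Abcg8 (1.33 ± 0.18 and 1.25 ± 0.17) and Abcg1 (1.88 ± 0.29 and 1.44 ± 0.28).

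The genes whose levels most resembled each called member over the 17 libraries were found by Pearson correlation of log2 values. They share libraries, depth and the treatment difference, and the highest of all genes were picked, so the correlations are descriptions. For Acot1 they were Acsl1, a long-chain acyl-CoA synthetase (r = 0.96), Acaa1b (0.96) and Abcg1 (0.94). With the group means removed, r was 0.90, 0.86 and 0.73. For Acot2 they were Ehhadh (0.93), Acaa1b (0.92) and Hsd17b11 (0.92), or 0.58, 0.54 and 0.66 within groups. For Acot3 they were Cyp4a14, a fatty acid omega-hydroxylase (0.89), Dmpk (0.85) and Esrrg (0.85), and for Acot4 Cyp4a10 (0.91), Cyp4a14 (0.90) and Hsd17b11 (0.89).

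Cyp4a14 shows the same split of vehicle livers as Acot3 and Acot4. It was picked for its likeness to both over these same libraries, so the shared split is a description and not a separate finding. Its counts were 15555 and 17237 in replicates 1 and 4 of control vehicle, against 798 and 1805 in replicates 2 and 3. In Gata4LKO vehicle they were 12031 and 16060.4 in replicates 5 and 6, against 6045 and 5732 in replicates 7 and 8. Acot1 in control vehicle was also highest in replicates 1 and 4, and in Gata4LKO vehicle it was highest in replicate 6. Acot1, Acot4 and Acsl1 had replicate 10 of control GW3965 as their highest of all libraries, at 2334, 4609 and 59669 counts.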

How the data were processed

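Per the labels' protocols, the 17 liver libraries came from a KAPA mRNA Hyperprep kit. STAR 2.6.0c, FastQC, DESeq2 and the mm10 build are named in the submitters' processing notes. No source used here gives the read counter, annotation or strand setting. The authors deposited a table of normalized counts, a signal equal to reads divided by a size factor per library, as the values show: 100% of 307381 values above 0 came out as whole reads (tolerance 0.05). The authors' comparison tables hold a log2 fold change and p-values, per the file headers. Depth was 11.8 to 22.05 M reads in genes, and no pair of replicates agreed within sampling noise.

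The members and gene lists were chosen with earlier results of these data known. Groups follow the titles, and the age in the series design text (9 weeks) differs from the labels. The filter asked for 10 or more normalized counts in 4 or more libraries. The 13379 genes left were fitted with limma-trend (limma 3.58.1, R 4.3.3) on log2(normalized count + 1), all 17 libraries in 1 fit, with Benjamini-Hochberg adjustment over all of them and a threshold of 0.05. Differences on this scale understate changes of low genes. The ratio of Acot1 to Acot2 was compared by two-sided exact permutation (scipy 1.17.1). The fit was tested on simulated data. Alternatives were edgeR 4.0.16 and DESeq2 1.42.0 on the recovered reads, pseudocounts of 0.5 and 10, no filter, TMM scaling, only the groups compared, covariates and leaving libraries out. Levels per kb use the exon length of each gene in GENCODE M21 (mm10). Promoters came from RefSeq (GRCm38.p6), where 7 members had an entry. All members are named. The 3 most alike genes are named for each called member, and at most 4 called genes per list by adjusted p, with all tested thioesterases and cluster neighbours, except a few genes that are not reported here.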

Additional observations from a re-analysis of the deposited data

Results flagged for a closer look

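Among 28 groups of 4 or 5 libraries (7 members by 4 groups), 5 had a highest library whose gap to the next was large against the range of its group by Dixon's criterion, where chance flags about 1 in 20 groups. Acot1 was at 749 in replicate 6 of Gata4LKO vehicle, with the next library at 389.9, and at 1867 in replicate 16 of Gata4LKO GW3965, with the next at 1326. Acot3 was at 1474 in replicate 9 of control GW3965, with the next at 664. Acot8 was at 214 in replicate 12 of control GW3965, with the next at 149. Acot13 was at 1357 in replicate 17 of Gata4LKO GW3965, the library with the highest mitochondrial share, with the next at 696.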

How the results depend on the processing

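No paired analysis was possible because the groups share no replicate numbers. No called difference turned its sign. Uncalled log2 differences of members did. With the mitochondrial share as a covariate, Acot8 with GW3965 became 0.16 in control and 0.074 averaged, Acot8 between genotypes with vehicle -0.11, Acot1 between genotypes with GW3965 -0.020 and the Acot13 interaction -0.0066. With Gm5345 detection as a covariate, Acot8 with GW3965 in control became 0.11, Acot12 in Gata4LKO -0.035, Acot4 between genotypes with vehicle -0.22, the Acot4 interaction 0.16 and the Acot12 interaction -0.17. Without the 5 libraries of high mitochondrial share, Acot8 became 0.11 with GW3965 in Gata4LKO, 0.048 averaged over genotypes, -0.012 between genotypes with vehicle, 0.11 with GW3965 and 0.049 averaged, and 0.12 for the interaction, and the interactions of Acot12 and Acot13 became -0.047 and -0.12. Between genotypes with GW3965, edgeR with the authors' size factors, edgeR with TMM and DESeq2 gave -0.097, -0.098 and -0.097 for Acot1 and 0.042, 0.038 and 0.044 for Acot13, and averaged over treatments -0.010, -0.0078 and -0.0086 for Acot2. Leaving out 1 library also turned signs. With GW3965 in control, Acot8 ran from -0.16 to 0.12 and Acot12 from -0.042 to 0.15. Between genotypes with vehicle, Acot4 ran from -0.069 to 0.27, Acot8 from -0.012 to 0.25 and Acot12 from -0.012 to 0.18. With GW3965, Acot1 ran from -0.23 to 0.30, Acot2 from -0.37 to 0.024, Acot3 from -0.50 to 0.063, Acot8 from -0.63 to 0.095 and Acot13 from -0.27 to 0.068. Averaged over treatments, Acot2 ran from -0.079 to 0.15, Acot3 from -0.067 to 0.33, Acot4 from -0.14 to 0.024 and Acot8 from -0.26 to 0.0998. The interaction ran from -0.027 to 0.17 for Acot12 and from -0.061 to 0.28 for Acot13. With GW3965 in control, 3 members were called. This became 0 when only the 2 groups compared were fitted (19 genes called in all, against 106) and 0 with Gm5345 detection as a covariate (12 genes in all). Leaving out 1 library gave 1 to 4. With GW3965 in Gata4LKO, the 1 call became 2 when only the groups compared were fitted (Acot1 joined) and 0 without the 5 libraries of high mitochondrial share. It became 0 with Gm5345 detection as a covariate, which there follows the treatment, and 0 to 1 when 1 library was left out (0 in 7 of 9 fits). Averaged over genotypes, the count was 4 or 5 throughout, the fifth being Acot13, which passed with DESeq2 (adjusted p = 0.0125), without the 5 libraries (0.0321, limma) and with the mitochondrial share as a covariate (0.0152, limma). Acot3 in control passed with DESeq2 (0.0332) and with the mitochondrial share as a covariate (0.0462, limma). Members called between genotypes and for the interaction were 0 in every setting. Over all genes, counts of calls ranged from 12 to 230 for GW3965 in control, 1 to 194 in Gata4LKO and 142 to 527 averaged. The causes were not tested. The lowest read count of any member was 14, for Acot8 in replicate 17 of Gata4LKO GW3965. In control vehicle Acot2 had 31 to 86 reads and Acot8 103 to 234.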
